A study of Mus musculus with 12 samples.

Results

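Described here are OT-1 CD8+ T cells recovered from mouse melanomas, compared between tumors that carry the OT-1 antigen and tumors that do not. All libraries labelled as CD8 bead-selected T cells were taken, which gave 6 of the 12 libraries of the series, 3 with the label OVA and 3 with the label B16-F10. B16-F10 is a mouse melanoma line of C57BL/6 origin. Both tumor lines expressed the calcium reporter GCaMP6s from a lentiviral EF1A promoter, and the B16-F10-OVA line also expressed ovalbumin from such a promoter. They were grown in NOD-SCID mice, a strain that lacks its own T and B cells but keeps myeloid cells, vessels and connective tissue. Both groups received OT-1 T cells of genotype C57BL/6J-OT-I that had been activated with anti-CD3/anti-CD28 beads, and both were taken 2 days after transfer. Tumors were digested with collagenase and hyaluronidase and the T cells were picked with CD8 antibody beads. The groups are called T cells labelled OVA and T cells labelled B16-F10. The age of the mice is not given in the sources used here, nor whether a group's 3 libraries are from separate mice. P-values therefore measure the spread among libraries alone, and that spread may be technical.

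OT-1 cells carry a transgenic T cell receptor for an ovalbumin peptide held by the MHC class I protein H2-Kb. When such a receptor binds its peptide, kinases that include Lck and Zap70 pass the signal on, and the T cell makes cytokines such as interferon gamma and IL-2, loads granules with perforin and granzymes, and raises the IL-2 receptor alpha chain and surface receptors such as 4-1BB, PD-1 and LAG-3. Interferon gamma acts on most cells of a tumor, in part through the transcription factor IRF1, and induces chemokines that attract T cells, GTPases of the immune response and the antigen presentation machinery.

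Both groups carried the receptor that defines OT-1 cells. The segment Trav14d-1 took 2516 of 2624 counts of alpha chain variable segments in T cells labelled B16-F10, or 95.88% (95% exact Clopper-Pearson interval 95.05 to 96.61), and 3331 of 3494 in those labelled OVA, or 95.33% (94.58 to 96.01). The segment Trbv12-1 took 99.84% of the beta chain variable counts (99.69 to 99.92) in the first group and 99.64% (99.38 to 99.81) in the second. Intervals cover counting error only. Cd8a, the CD8 alpha chain, stood at 119, 120.1 and 117 CPM (counts scaled to a common library total) in T cells labelled B16-F10 and at 129, 133 and 128 CPM in those labelled OVA. Cd3e, a receptor signalling chain, had 61.9, 60.9 and 59.9 CPM against 72.2, 74.1 and 79.0 CPM. Trac, the alpha constant region, had 86.6, 80.6 and 86.9 CPM against 94.2, 97.1 and 96.8 CPM. The beta constant region Trbc2 went the other way, with 287, 290.4 and 285 CPM against 191, 189 and 190.4 CPM. None of these 4 markers overlapped between the groups, but neither did 9009 of all 16536 genes tested, so a lack of overlap sets no gene apart here.

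The libraries also held much RNA of other cells. The 16 T cell identity genes summed to 976.4 ± 5.08 CPM (SD, n = 3) for the B16-F10 label and 914.8 ± 1.64 CPM for the OVA label. The 29 endothelial and fibroblast markers summed to 20890 ± 110 CPM and 19898 ± 76.2 CPM. These sums had ratios of 0.937 and 0.953 (exact two-sided permutation p = 0.1 for each, the smallest that 3 against 3 allow). With TMM-scaled CPM the difference of the identity sums, OVA minus B16-F10, went from -61.56 to -24.34 CPM and that of the stromal sums from -992.1 to -189.7 CPM. The endothelial junction genes Pecam1 and Cdh5 and the collagen genes Col1a1 and Col3a1 stood between 1629 and 1990.0 CPM in every T cell library. CPM values are not corrected for gene length, so levels of different genes are not compared. In such bulk libraries fewer cells of a type and less RNA per cell cannot be told apart. Library totals ran from 15494683 to 24267494 counts. Mitochondrial genes took 3.31% ± 0.0814 of the counts in T cells labelled B16-F10 and 2.78% ± 0.0153 in those labelled OVA, and the ribosomal RNA gene Rn18s-rs5 1.05% ± 0.03 and 0.315% ± 0.00208. The part of these differences in the results below was not tested.

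**Figure D1:**
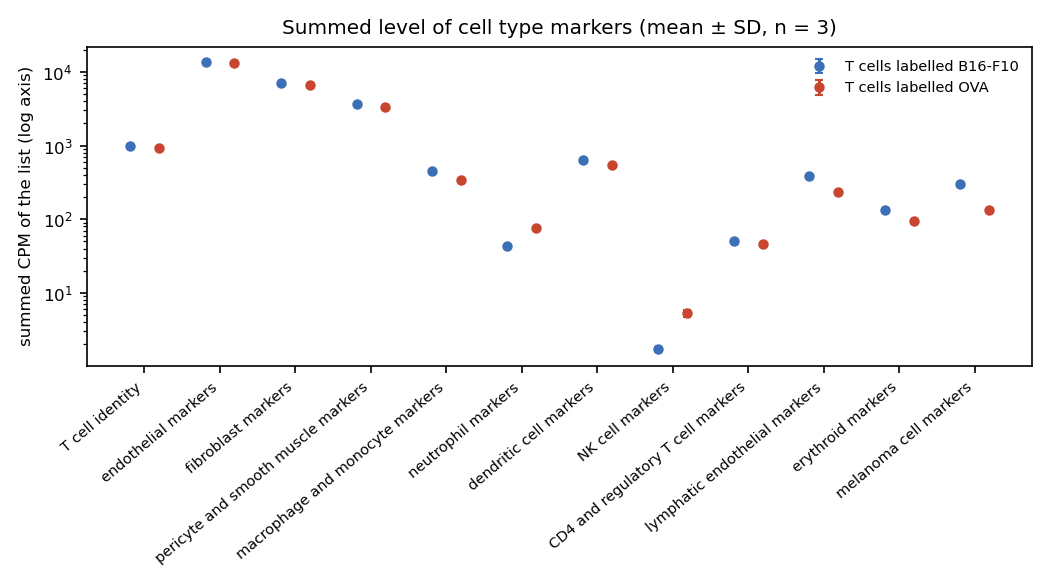
Summed level of 12 marker lists in the T cell libraries, in CPM on a log axis, with the mean and SD of 3 libraries for T cells labelled B16-F10 (blue) and OVA (red). In T cells labelled B16-F10 the endothelial sum is 13762 CPM, the fibroblast sum 7129 CPM and the T cell identity sum 976.4 CPM. Melanoma markers are lower and neutrophil markers higher in OVA.

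Markers of other leukocytes were present and moved in both directions. Macrophage and monocyte markers summed to between 441.8 and 450.1 CPM for T cells with the B16-F10 label and between 333.9 and 343.9 CPM for those with the OVA label, and dendritic cell markers to 625.8 to 635.4 against 543.2 to 547.8 CPM. Neutrophil markers summed to 41.37 to 44.78 against 74.11 to 78.08 CPM. NK cells also make granzymes and perforin, and their 9 markers summed to 1.613 to 1.808 against 4.904 to 5.895 CPM. Of these markers 2 passed the filter on low counts. Klri2, a lectin-like receptor, rose by 3.43 to between 3.63 and 4.58 CPM, but passed that filter through T cells labelled OVA alone, so it had to differ. Klra8 had 0.645 to 0.829 against 0.339 to 0.453 CPM and did not pass (edgeR adjusted p = 0.0858). Ncr1, the defining NK receptor gene, stood at or below 0.0848 CPM in every library. Melanoma cell markers were lower in T cells labelled OVA, with a sum of 129.3 to 137.3 against 300.8 to 307.5 CPM.

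Tumor cells sorted from the same kinds of tumor gave the other 6 libraries. Those labelled OVA held T cell RNA, with 9.89 CPM of Cd3e, 6.947 CPM of Trav14d-1 and 13.82 CPM of Trbv12-1, whereas those labelled B16-F10 had 0, 0.0157 and 0 CPM. Taken as a share of the T cell identity sum of each library, Ifng came to 1.31% ± 0.0877 in T cells labelled B16-F10, 34.4% ± 0.906 in T cells labelled OVA and 1.04% ± 0.0993 in tumor cells labelled OVA. Gzmb came to 13.3% ± 0.255, 177% ± 2.12 and 16.5% ± 1.14 in the same order. Of 26 T cell genes beyond 2-fold between the T cell groups, 23 stood in tumor cells labelled OVA nearer to T cells labelled B16-F10, and 3 (Gzmg, Irf4 and Lag3) nearer to T cells labelled OVA. Of 21 interferon gamma response genes beyond 2-fold, taken relative to the endothelial and fibroblast sum, 19 stood nearer to T cells labelled B16-F10, Cd274 and Wars1 being the exceptions. These counts were made after the values were seen and carry no test. The direction of every OVA effect below rests on the group labels.

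Across all genes the groups differed widely. Of 16536 genes tested with edgeR's quasi-likelihood test, 3912 (23.7%) were higher and 3711 (22.4%) lower in T cells labelled OVA at an adjusted p under 0.05, 46.1% in all. The biological coefficient of variation between libraries was 0.0149, and differences as small as 0.04 on the log2 scale passed. A test against a 2-fold change (edgeR's glmTreat, called beyond 2-fold below) passed 296 higher genes (1.79%) and 154 lower genes (0.931%), 2.72% in all. With DESeq2 the lower genes beyond 2-fold were 95. The log2 fold changes, OVA minus B16-F10, had a median of -0.0074 over all genes tested.

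Lists of genes known mainly from T cells were kept apart from lists that stroma also expresses, and are called T cell restricted here, although some members were also present in tumor cells labelled OVA. The 10 lists held 120 genes, of which 109 passed the filter on low counts. Of these 58 were higher and 36 lower in T cells labelled OVA, 86.2% of those tested against 46.1% of all genes, and 17 and 9 were beyond 2-fold. Their median log2 fold change was 0.22. A member that passed the filter through 1 group alone had to differ, so the share is a description. Members named below for which this was so included Gzme, Gzmg, Il2, Il3, Il13, Tox, Klrg1 and Trat1.

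**Figure D2:**
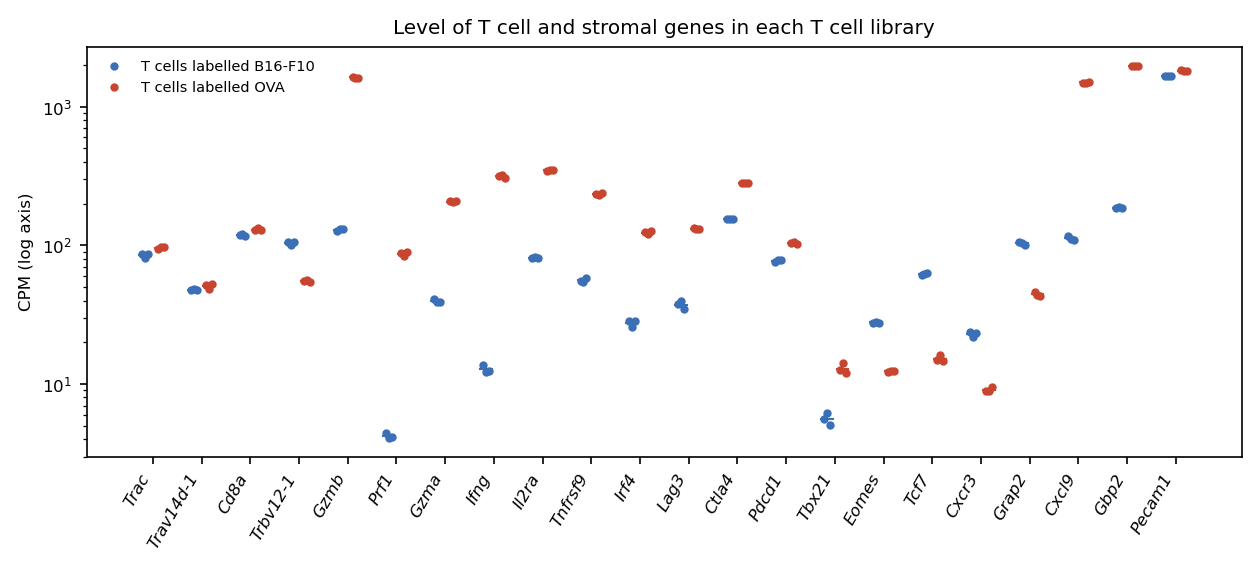
Level of 22 genes in each T cell library, in CPM on a log axis; each point is 1 library and each bar the mean of 3, in blue for T cells labelled B16-F10 and red for OVA. Gzmb rises from between 126 and 132 CPM to between 1612 and 1646 CPM, whereas Trac and Trav14d-1 differ little and Pecam1, an endothelial gene, stays near its level.

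Cytotoxic granule genes held some of the largest rises among T cell genes. Gzmb, the protease that starts apoptosis in target cells, stood at 126, 131 and 132 CPM for T cells with the B16-F10 label and at 1646, 1613 and 1612 CPM in those labelled OVA. The groups lay far apart, and the log2 fold change was 3.70 (SE 0.0172, adjusted p = 1.77e-38). Prf1, perforin, which lets granzymes enter the target, had 4.41, 4.07 and 4.13 CPM against 87.4, 84.0 and 89.1 CPM (log2 fold change 4.42, SE 0.0621, adjusted p = 7.76e-28). Gzma, a second granzyme, had 41.2, 39.3 and 39.0 CPM against 208.5, 203.5 and 208.2 CPM (2.43, SE 0.0287, adjusted p = 1.48e-29). None of the 3 genes overlapped between the groups, as was so for 9009 of all 16536 genes tested.

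The granzymes of the chromosome cluster around Gzmb rose as well. Gzmd was at 1.04, 1.02 and 1.29 CPM and then at 31.4, 31.1 and 32.7 CPM (log2 fold change 4.90, SE 0.104, adjusted p = 1.07e-23). Gzme rose by 4.13, Gzmf by 3.56 and Gzmg by 2.19, each with no overlap between groups. Gzme and Gzmg passed the filter on low counts through T cells labelled OVA alone, so they had to differ. Gzmc rose by 1.04 to between 82.8 and 88.5 CPM. Gzmd to Gzmg are near copies of each other, and the counting could split their reads, so their single values are uncertain. Nkg7, a granule membrane protein, rose by 1.57, and Cst7, a cathepsin inhibitor of granules, by 0.36.

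Not every cytotoxic gene followed. Ctsw, a cathepsin of cytotoxic cells, fell from 51.5, 51.1 and 49.6 CPM to 18.1, 16.04 and 19.6 CPM (log2 fold change -1.43, SE 0.0562, adjusted p = 9.45e-18). Fasl, the ligand of the death receptor Fas, fell by 0.62 to between 9.46 and 10.8 CPM, and Gzmk, a granzyme of memory-type cells, fell by 0.56. Gzmm differed by 0.44 and did not pass (adjusted p = 0.111). In all, 10 of the 14 granule genes rose (71.4%) and 3 fell (21.4%), with a median of 1.88. Over all genes 23.7% rose and 22.4% fell.

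Cytokine genes rose with the granzymes. Ifng, interferon gamma, had 13.7, 12.2 and 12.5 CPM for T cells with the B16-F10 label and 316.8, 321.7 and 306.5 CPM in those labelled OVA, with no overlap (log2 fold change 4.67, SE 0.0368, adjusted p = 1.36e-33). Il2, the T cell growth factor, had 0 counts in all 3 libraries of the first group and 0.948, 0.814 and 1.15 CPM in the second, at least 17.21-fold higher when 3 counts over that group are taken as the floor. Il3, a growth factor for myeloid cells, had 0, 0.0565 and 0.129 CPM against 1.85, 2.27 and 2.04 CPM, which is 35.5-fold higher (interval from counting error 11.89 to 174.4). Il13, a cytokine of type 2 immunity, rose by 3.29 to between 2.14 and 3.18 CPM. Il2, Il3 and Il13 thus rest on few counts, 64, 132 and 178 over the second group.

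The other secreted factors moved less. Ccl1, a chemokine of activated T cells, rose by 1.19, Lta (lymphotoxin alpha) by 0.92 and Xcl1, a chemokine for cross-presenting dendritic cells, by 0.46. Il10 rose by 0.73, but at 15.97 CPM it was higher in tumor cells labelled OVA than in any T cell library, so it was not restricted to the T cell fraction here. Tnfsf8, the CD30 ligand, rose by 0.39. Of 17 members of the list 9 passed the filter, and all 9 were higher, against 23.7% of all genes. Il2, Il3 and Il13 passed it through T cells labelled OVA alone, so they had to differ. Cd40lg, Il4, Il5, Il9, Il17a, Il17f, Il21 and Il22 did not pass the filter.

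Il2ra, the IL-2 receptor alpha chain, went from 80.7, 82.2 and 80.6 CPM to 343.4, 348.1 and 350.7 CPM (log2 fold change 2.15, SE 0.0218, adjusted p = 4.59e-31). Irf4, a transcription factor whose level follows receptor signal strength, went from 28.7, 25.7 and 28.7 CPM to 124.5, 120.7 and 125.8 CPM (2.22, SE 0.0386). Tnfrsf9, which encodes 4-1BB, went from 54.9, 54.7 and 58.2 CPM to 232.5, 232.3 and 237.6 CPM (2.12, SE 0.0264). Each of these was near 4-fold higher in every library of T cells labelled OVA, and each was beyond 2-fold. Zbtb32, a transcription factor that restrains activated lymphocytes, had the second highest log2 fold change of all genes named by the rule for the whole table, with 1.76, 2.03 and 3.94 CPM against 71.5, 70.7 and 70.1 CPM (4.88, SE 0.0965).

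Receptor-induced and immediate early genes did not rise as a group. Of the 25 genes on that list, which stroma also expresses, 9 were higher (36%) and 14 lower (56%), against 23.7% and 22.4% of all genes. The median was -0.17, and none was beyond 2-fold. Nr4a1, an orphan nuclear receptor often used as a marker of recent receptor signalling, was lower, with 824.3, 809.1 and 810.3 CPM for T cells with the B16-F10 label against 467.9, 470.5 and 461.9 CPM (log2 fold change -0.75, SE 0.0146, adjusted p = 1.73e-24). Nr4a2 and Nr4a3 fell by 0.69 and 0.31. Egr2 rose by 0.43, Myc by 0.61 and Fosl1 by 0.81. Tumor cells labelled OVA held 826.6 CPM of Nr4a1, as much as the T cell libraries, so its level was not particular to the T cell fraction.

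Inhibitory receptors rose, with exceptions. Lag3, which binds MHC class II, went from 37.8, 39.6 and 34.7 CPM to 133.9, 130.2 and 130.4 CPM (log2 fold change 1.87, SE 0.0357, adjusted p = 1.06e-24). Klrc1, which encodes the receptor NKG2A, went from 6.63, 7.57 and 6.58 CPM to 44.2, 44.5 and 44.0 CPM (2.73, SE 0.0651), and its partner Klrd1 rose by 1.10. Ctla4 rose by 0.92 to between 281.3 and 282.8 CPM, Tigit by 0.95, Cd160 by 0.63 and Pdcd1, which encodes PD-1, by 0.48. Tox, a transcription factor of chronically stimulated T cells, moved against them, from 3.32, 3.33 and 3.61 CPM to 0.289, 0.756 and 0.382 CPM (-2.85, SE 0.266, adjusted p = 8.2e-10). Klrg1, a marker of terminal effector cells, was at most 0.622 CPM, and its difference of -1.14 (adjusted p = 0.0393) lost its call in 9 of 15 alternative analyses. The list of 10 had 7 higher (70%) and 2 lower members (20%), against 23.7% and 22.4% of all genes, and a median of 0.77.

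Costimulatory receptors gave 7 higher (63.6%) and 2 lower (18.2%) of 11, against 23.7% and 22.4% of all genes. Besides Tnfrsf9, the largest rise was that of Cd28, the main costimulatory receptor, from 51.0, 49.4 and 52.9 CPM to 98.4, 96.5 and 98.4 CPM (log2 fold change 1.00, SE 0.033). Klrk1 (NKG2D) rose by 0.58, Tnfrsf18 (GITR) by 0.45, Icos by 0.43 and Cd27 by 0.23. Slamf6, a receptor of less differentiated T cells, fell by 1.10 and the adhesion receptor Cd226 fell by 0.59. Tnfrsf4 (OX40) and Crtam overlapped between the groups and did not pass.

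Among transcription factors the pair Tbx21 and Eomes moved in opposite directions. Tbx21 encodes T-bet, a driver of effector differentiation, and went from 5.60, 6.22 and 5.10 CPM to 12.6, 14.1 and 12.0 CPM (log2 fold change 1.24, SE 0.0998, adjusted p = 5.04e-11). Eomes, a related factor of memory and exhausted cells, fell from 27.7, 28.1 and 27.5 CPM to 12.2, 12.3 and 12.5 CPM (-1.12, SE 0.0597, adjusted p = 8.8e-15). Ikzf2, which encodes Helios, fell from 42.4, 41.8 and 41.2 CPM to 11.8, 12.3 and 13.7 CPM (-1.67, SE 0.0594). Gfi1, a repressor in lymphocytes, rose by 0.90 and Batf3 by 0.73. Neither Tbx21 nor Eomes was beyond 2-fold (adjusted p = 0.119 and 0.259 in edgeR's glmTreat), whereas Ikzf2 and Irf4 were.

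Genes of naive and memory T cells fell in part. Tcf7, the transcription factor TCF-1, went from 61.5, 62.0 and 62.7 CPM to 15.0, 16.1 and 14.6 CPM (log2 fold change -1.98, SE 0.0498, adjusted p = 4.87e-22). Lymphotoxin beta (Ltb) fell by 0.99, Lef1, the partner of TCF-1, by 0.45, Il7r, the IL-7 receptor, by 0.36 and the lymph node homing receptor Ccr7 by 0.27. Bach2, a repressor that restrains effector programs, rose by 1.07. The list gave 3 higher (33.3%) and 5 lower (55.6%) of 9 tested, against 23.7% and 22.4% of all genes.

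Homing receptors gave 2 higher (25%) and 4 lower (50%) of 8 tested, against 23.7% and 22.4% of all genes. Cxcr3, the receptor for the chemokines Cxcl9, Cxcl10 and Cxcl11, went from 23.7, 21.7 and 23.2 CPM to 8.86, 8.89 and 9.54 CPM (log2 fold change -1.27, SE 0.0712, adjusted p = 2.46e-14). Ccr4, a skin homing receptor, fell by 1.80 to about 1 CPM. Itgae, the integrin chain CD103 of resident T cells, fell by 1.28 to between 5.47 and 5.81 CPM. All 3 were beyond 2-fold. Cd69, an early activation marker, rose by 0.46 and Cxcr6, a receptor of tissue T cells, by 0.31.

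Signalling genes close to the receptor were mostly lower, with 2 higher (11.8%) and 10 lower (58.8%) of 17, against 23.7% and 22.4% of all genes. Zap70, the kinase that binds the phosphorylated receptor, rose from 37.7, 37.5 and 35.7 CPM to 64.5, 61.5 and 60.4 CPM (log2 fold change 0.80, SE 0.042), and the kinase Txk rose by 0.83. The adaptor Grap2 fell from 105.4, 103.1 and 101.2 CPM to 46.1, 43.5 and 43.1 CPM (-1.17, SE 0.0347, adjusted p = 2e-20) and was the 1 member beyond 2-fold. Ubash3a, a negative regulator of the receptor, fell by 1.11 and the adaptor Lat by 0.26. Lck, the first kinase, did not pass (adjusted p = 0.161).

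The receptor genes themselves diverged. Trbv12-1, the beta variable segment of the transgene, fell from 105.4, 101.1 and 106.5 CPM to 55.5, 56.6 and 54.2 CPM (log2 fold change -0.86, SE 0.0323, adjusted p = 3.95e-18), and Trbc2 fell by 0.54. The alpha segment Trav14d-1 rose by 0.15, from between 47.7 and 48.2 CPM to between 48.6 and 52.8 CPM, and Trac by 0.24. Cd247, the zeta chain, rose by 0.76 and Cd8b1 by 0.62, against 0.18 for Cd8a. Skap1 and Bcl11b fell by 0.90 and 0.74. Trat1, a receptor-associated adaptor, fell from 2.70, 1.87 and 2.58 CPM to 0.124, 0.116 and 0.127 CPM (-4.15, SE 0.363). The identity list gave 7 higher (43.8%) and 6 lower (37.5%) of 16, against 23.7% and 22.4% of all genes, with a median of 0.03.

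Receptors for interleukins gave 5 higher (83.3%) and 1 lower (16.7%) of 6, against 23.7% and 22.4% of all genes. After Il2ra, the IL-12 receptor chain Il12rb1 rose by 0.98, Il2rb, the beta chain shared by IL-2 and IL-15 receptors, by 0.32, Il18rap by 0.31 and Il12rb2 by 0.30. Il21r fell from 152.1, 155.7 and 156.4 CPM to 78.1, 80.6 and 80.8 CPM (log2 fold change -0.90, SE 0.0257). Tumor cells labelled B16-F10 had 12.2 CPM of Il12rb1, about as much as the T cell libraries.

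**Figure D3:**
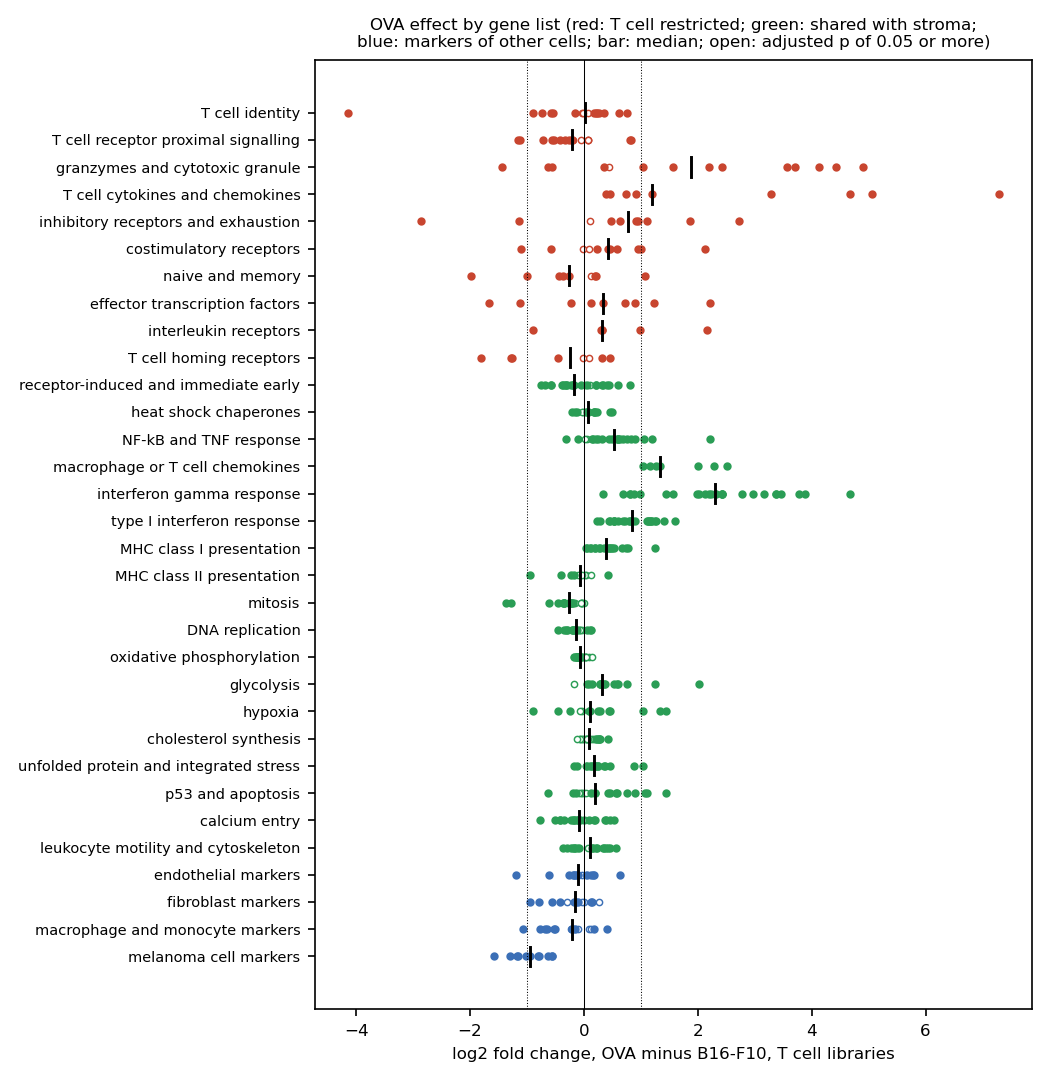
Log2 fold change (OVA minus B16-F10) of each tested member of 32 gene lists in the T cell libraries, with the list median as a black bar; filled points had an adjusted p under 0.05, and points beyond the axis are drawn at its edge. The interferon gamma list lies wholly above 0 with a median of 2.29, granule genes spread from -1.43 to 4.90, and melanoma cell markers lie wholly below 0.

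Interferon gamma response genes, which stroma and T cells both express, rose without exception among the 27 tested. The list median was 2.29 and 21 members were beyond 2-fold, against 1.79% of all genes. Gbp2, a guanylate-binding GTPase, had 184.6, 187.6 and 186.9 CPM for T cells with the B16-F10 label and 1973, 1950.0 and 1962 CPM in those labelled OVA (log2 fold change 3.45, SE 0.0145, adjusted p = 3.12e-39). Cxcl9, a ligand of Cxcr3, had 116.4, 111.5 and 110.1 CPM against 1484, 1483 and 1513 CPM (3.78, SE 0.0184). Cxcl10, a second ligand, had 160.4, 165.9 and 158.4 CPM against 1610.0, 1628 and 1622 CPM (3.38, SE 0.0162). The third ligand, Cxcl11, rose by 3.89 to between 28.8 and 29.9 CPM. Ligand genes thus rose while their receptor gene Cxcr3 fell.

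Regulators and effectors of the response rose too. Irf1, the transcription factor that carries the response, had 358.3, 375.2 and 367.2 CPM against 1443, 1435 and 1420.0 CPM (log2 fold change 2.02, SE 0.0151). Cd274, which encodes the PD-1 ligand PD-L1, rose by 3.17 from between 88.1 and 93.2 CPM to between 773.0 and 780.7 CPM. Socs1, a feedback inhibitor of cytokine signalling, rose by 1.57. Ido1, a tryptophan-degrading enzyme, rose by 4.68 to about 5 CPM, and Ciita, the regulator of MHC class II genes, by 0.89. Ido1 passed the filter on low counts through T cells labelled OVA alone, so it had to differ. The smallest rise of the list was that of Nos2, by 0.33.

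Promoters of this list are shown because its members moved together. RefSeq promoter entries of the build GRCm38.p6 were found for 16 of its 27 genes. Motifs were searched in the 250 bases before each start, on both strands, and 2 of them are described first. These were the gamma-activated site TTCNNNGAA, an element of interferon gamma target genes, and the interferon-stimulated response element, read as 2 copies of GAAA with 2 bases between them, which interferon regulatory factors bind. The first was present in 9 of the 16 (56.2%) and the second in 11 (68.8%), and 6 (37.5%) held both. Over all 27025 genes of the promoter table the shares were 8.13%, 3.46% and 0.4%. Igtp, Irgm2, Tgtp1 and Tgtp2, GTPases against intracellular pathogens, held both motifs with the first bases 11 bases apart. Around the motifs Igtp and Irgm2 are near copies of each other, as are Tgtp1 and Tgtp2, so these genes are not independent members of the count. Irf1 and Gbp5 held the gamma-activated site alone within the bases shown. Each line gives the 120 bases before the start, 5′ to 3′ on the gene's strand, with the motifs in capitals; GRCm39, the build of the counts, was not used for them.
Irf1, chr11:53769894-53770013, plus strand: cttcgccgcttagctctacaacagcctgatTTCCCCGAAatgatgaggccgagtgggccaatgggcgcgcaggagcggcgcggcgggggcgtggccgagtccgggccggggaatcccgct
Gbp5, chr3:142496814-142496933, plus strand: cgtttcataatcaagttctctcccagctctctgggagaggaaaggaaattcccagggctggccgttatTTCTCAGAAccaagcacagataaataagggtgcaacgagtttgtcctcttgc
Igtp, chr11:58199436-58199555, plus strand: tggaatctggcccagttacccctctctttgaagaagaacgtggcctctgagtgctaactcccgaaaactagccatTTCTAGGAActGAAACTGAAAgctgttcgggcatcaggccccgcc
Irgm2, chr11:58214857-58214976, plus strand: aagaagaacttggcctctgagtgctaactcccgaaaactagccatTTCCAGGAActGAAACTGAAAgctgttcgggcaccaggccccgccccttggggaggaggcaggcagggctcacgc
Tgtp1, chr11:48992247-48992366, minus strand: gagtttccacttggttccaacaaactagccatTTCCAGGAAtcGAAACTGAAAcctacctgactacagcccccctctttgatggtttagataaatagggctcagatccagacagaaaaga
Tgtp2, chr11:49064213-49064332, minus strand: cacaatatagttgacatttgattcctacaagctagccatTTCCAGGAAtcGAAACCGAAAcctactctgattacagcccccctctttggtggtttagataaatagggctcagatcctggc

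A match is a description of letters and no sign that a factor bound there. In the T cell libraries Igtp rose by 2.23 and Irgm2 by 2.20, from 98.7, 96.7 and 93.6 CPM to 441.1, 436.0 and 432.5 CPM and from 69.6, 70.7 and 70.8 CPM to 307.3, 317.0 and 307.8 CPM. Tgtp1 and Tgtp2, which are near copies and may share reads, rose by 2.43 and 2.33. Gbp5 rose by 3.38, from between 47.7 and 49.5 CPM to between 484.2 and 488.3 CPM. Of 13 granule genes with a promoter entry, 2 held the gamma-activated site and 1 the response element. The AP-1 motif TGANTCA, bound by Fos and Jun proteins, was searched in the same way. It was present in 3 of the 16 interferon gamma promoters (18.8%) and in 7.82% of all promoters. In Gzmb it stood 58 bases before the start. Among the 13 granule promoters 1 (7.69%) held it, near the 7.82% of all promoters, so the motif does not set the granule genes apart. Gzmb is shown because it is that 1 promoter, with the motif in capitals.
Gzmb, chr14:56262335-56262454, minus strand: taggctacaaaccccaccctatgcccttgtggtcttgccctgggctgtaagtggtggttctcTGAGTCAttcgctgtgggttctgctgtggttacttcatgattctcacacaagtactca

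Type I interferon response genes and MHC class I genes rose by less. All 25 tested genes of the first list were higher, with a median of 0.85 and 8 members (32%) beyond 2-fold. The shares of all genes were 23.7% higher and 1.79% higher beyond 2-fold. Rsad2, an antiviral enzyme, had 63.9, 62.9 and 63.0 CPM against 153.8, 164.2 and 163.9 CPM (adjusted p = 1.76e-23), and Isg15, a ubiquitin-like protein, rose by 0.69. The MHC class I list had 19 of 19 members higher, with a median of 0.38 and 1 (5.26%) beyond 2-fold. That member was Tap1, the peptide transporter, with 245.5, 242.5 and 240.0 CPM against 550.9, 559.1 and 554.8 CPM (1.25, SE 0.0167). B2m, the light chain, rose by 0.38. H2-K1, the heavy chain gene, had a fitted log2 fold change of 0.04 but CPM values that were slightly lower in T cells labelled OVA, so its direction depends on the scaling (1359 to 1368 against 1342 to 1351 CPM). MHC class II genes gave 1 higher and 4 lower of 10, 50% called, near the 46.1% of all genes.

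The same interferon genes took other directions in the tumor cell libraries. Of the 26 interferon gamma genes tested there, 10 were higher and 15 lower in tumor cells labelled OVA, beside 42.0% higher and 37.4% lower of all genes. Gbp2 fell from 261.8 CPM to 87.5 CPM between tumor cells labelled B16-F10 and OVA, where T cells went from about 186 to about 1962 CPM, and the difference between the OVA effects was 4.86 on the log2 scale (SE 0.0253, adjusted p = 6.48e-37). For Igtp the difference was 4.96 (SE 0.0326) and for Irgm1 4.73 (SE 0.0317). Effects differed between the fractions for 69.0% of all 18562 genes tested. Tumor cells labelled OVA also held far more stromal RNA than those labelled B16-F10, so the fractions differed in more than the label.

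**Figure D4:**
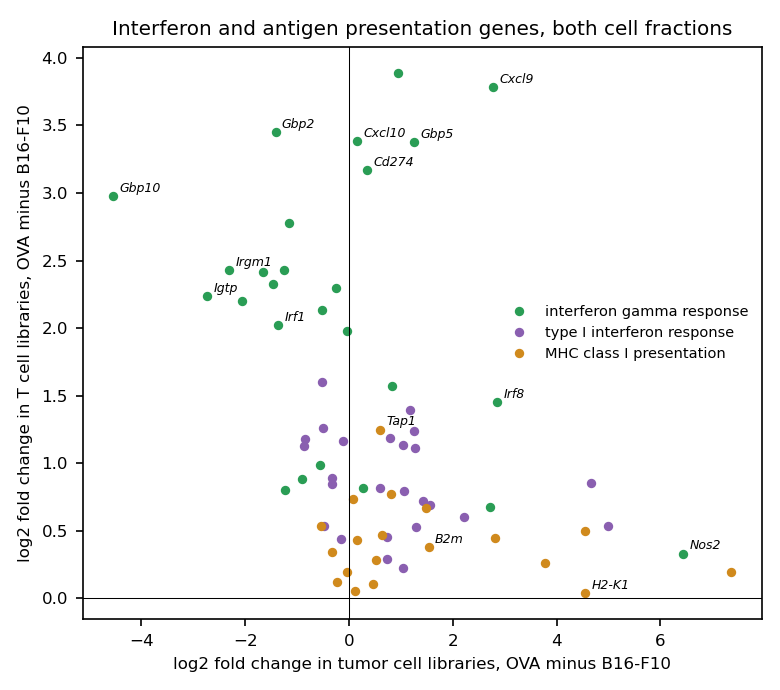
Log2 fold change (OVA minus B16-F10) of interferon and antigen presentation genes in the T cell libraries against that in the tumor cell libraries; each point is 1 gene. All points lie above 0 on the vertical axis, while interferon gamma genes such as Gbp2 (-1.41) and Igtp (-2.73) lie left of 0 on the horizontal axis.

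Each gene's level in tumor cells labelled OVA was divided by its level in T cells labelled B16-F10. A gene was put on the T cell side where this ratio was at or below 0.162, the highest among Cd8a, Cd3e, Trac and Trbc2, a rule with this denominator chosen after seeing the data. Over all genes with enough counts 106 of 14627 (0.725%) fell on the T cell side. All 16 identity genes did, but Cd8a, Cd3e, Trac and Trbc2 are among them and had to, because they set the limit. Of 349 shared genes 0 did, and neither did any marker of the endothelial or fibroblast lists. Of all 106 markers of other cells 3 did, which were 1 lymphatic endothelial and 2 erythroid markers. None of 26 interferon gamma genes fell there. Of 102 restricted genes with enough counts 49 did, 26 of them higher and 19 lower in T cells labelled OVA. Restricted genes that fell outside, such as Ccr7 (72.1 CPM in tumor cells labelled OVA) and Il7r (25.2 CPM), had a higher ratio than any gene that set the limit. Some lay close to the limit, and the ratio alone does not show which cells expressed them. Irf4, Lag3, Tcf7, Cxcr3, Itgae, Tbx21 and Ikzf2, described above, fell outside as well. So did Prf1, Gzma, Gzmd, Il2ra, Tnfrsf9 and Klrc1, and Gzmb lay close to the limit. On the T cell side were 1 of 9 naive and memory genes, 1 of 8 homing receptors and 2 of 9 effector transcription factors. Also there were 6 of 12 granule genes, 4 of 5 cytokine genes (with Ifng), 4 of 11 costimulatory and 2 of 6 interleukin receptors. Which cells held the RNA of genes outside was not tested. With the mean of both T cell groups as denominator and a limit of 0.155, 162 genes fell on the T cell side, among them 14 of 16 identity genes and 14 of 27 interferon gamma genes.

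**Figure D5:**
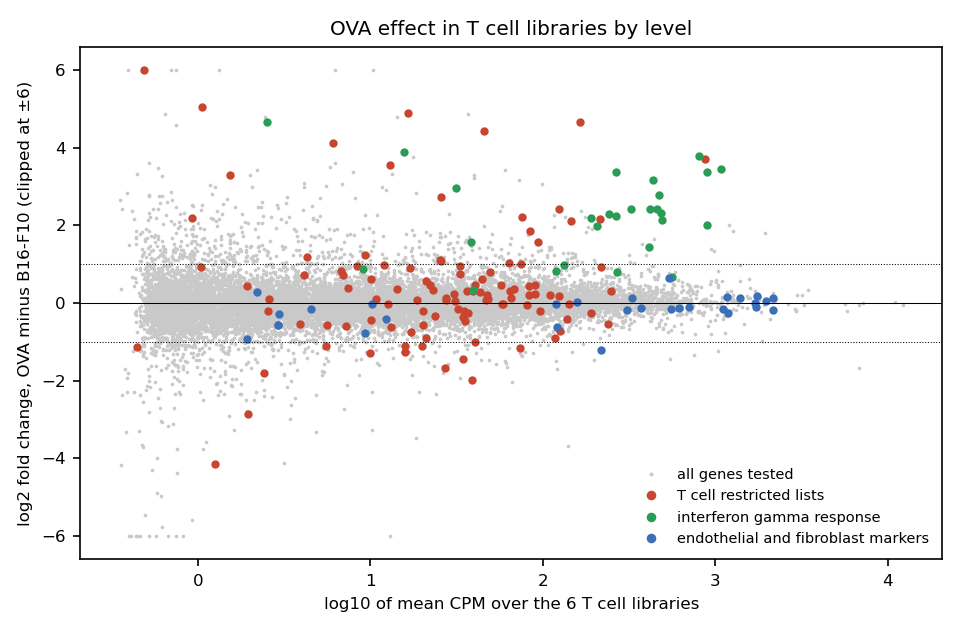
Log2 fold change (OVA minus B16-F10, drawn within 6 of 0) against the log10 of the mean CPM over the 6 T cell libraries, with 1 grey point for each of 16536 genes tested. T cell restricted genes (red) spread widely to both sides, from Trat1 at -4.15 to Ifng at 4.67 and beyond, interferon gamma genes (green) all lie above 0, and endothelial and fibroblast markers (blue) lie mostly within 2-fold.

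Inflammatory genes that several cell types express were mostly higher. Of 22 genes of the NF-kB and TNF response 18 were higher (81.8%) and 2 lower (9.09%), against 23.7% and 22.4% of all genes (median 0.53). Vcam1, an adhesion protein of activated endothelium, went from 63.3, 66.6 and 62.7 CPM to 289.6, 285.2 and 285.8 CPM (log2 fold change 2.22, SE 0.0245), Tnf rose by 1.19 and Icam1 by 0.83. The endothelial selectin Sele fell by 0.31. Chemokines made by both macrophages and T cells rose in 7 of 7 cases, with Ccl4 up by 2.51, Ccl3 by 2.28 and Ccl5 by 1.04. Tumor cells labelled OVA held 222.2 CPM of Ccl3, more than any T cell library. As given above, macrophage marker sums were lower and neutrophil marker sums higher in T cells labelled OVA. Which cells made these chemokines was not tested.

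Glycolysis genes gave 16 higher (94.1%) and 0 lower of 17 (median 0.32), against 23.7% and 22.4% of all genes. Pfkfb3, which makes the main activator of phosphofructokinase, went from 494.4, 484.4 and 480.1 CPM to 1896, 1894 and 1913 CPM (log2 fold change 2.02, SE 0.0136), and the hexokinase gene Hk2 rose by 1.24. Mitosis genes gave 0 higher and 14 lower (70%) of 20 (median -0.26). Mki67, a marker of cycling cells, fell from 159.0, 157.1 and 161.2 CPM to 100.4, 95.0 and 101.9 CPM (-0.62, SE 0.026), and the kinetochore genes Cenpf and Cenpe fell by 1.37 and 1.27. Oxidative phosphorylation genes gave 0 higher and 10 lower of 24, 41.7% called against 46.1% of all genes, and 3 and 3 when libraries were scaled to the T cell identity genes. Which cells held this RNA was not tested.

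Genes of calcium entry, which T cells need for receptor signalling, were split. Of 25 genes 7 were higher (28%), near the 23.7% of all genes, and 12 lower (48%), against 22.4% (median -0.08). Rcan1, a calcineurin target and regulator, rose by 0.46, while the channel genes Orai1 and Orai2 fell by 0.17 and 0.42 and their sensor Stim1 by 0.08. All 25 stood on the shared side of the ratio above.

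Cholesterol synthesis genes were higher in 6 and lower in 0 of 20, which is 30% called against 46.1% of all genes, and higher in 12 when libraries were scaled to the T cell identity genes. Over all genes 23.7% were higher and 22.4% lower. Hypoxia genes were higher in 9 (60%) and lower in 3 (20%) of 15, with Bnip3 up by 1.45. Unfolded protein and stress genes were higher in 14 (73.7%) and lower in 2 (10.5%) of 19. Among p53 and apoptosis genes 12 were higher (60%) and 3 lower (15%) of 20. The receptor gene Eda2r was up by 1.44 and the death receptor gene Fas by 0.76. DNA replication genes were higher in 2 (10%) and lower in 10 (50%) of 20. Heat shock genes were higher in 8 (50%) and lower in 3 (18.8%) of 16, and motility genes higher in 10 (50%) and lower in 7 (35%) of 20.

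Stromal markers also differed between the groups. Cldn5, an endothelial tight junction gene, fell from 306.1, 305.5 and 306.6 CPM to 129.2, 128.1 and 127.4 CPM (log2 fold change -1.20, SE 0.0196, adjusted p = 2.98e-26), while Pecam1 rose by 0.18. Kcnj8, a pericyte channel gene, fell by 1.25. The lymphatic chemokine gene Ccl21a had 25.7, 26.1 and 26.1 CPM for T cells with the B16-F10 label and 0 counts in all 3 libraries of those labelled OVA, at least 561.8-fold lower against the floor of 3 counts. Ccl21a passed the filter on low counts through T cells labelled B16-F10 alone, so it had to differ. Mmrn1 and Stab2, genes of lymphatic and sinusoidal endothelium, fell by 3.00 and 2.44. In all, endothelial markers gave 5 higher (33.3%) and 8 lower (53.3%) of 15, and fibroblast markers 2 (14.3%) and 7 (50%) of 14. Lymphatic markers gave 0 higher and 4 lower (66.7%) of 6. Over all genes the shares were 23.7% and 22.4%.

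The remaining genes named by the rule for the whole table were Serpinb9b, a serpin, which rose by 3.77 to between 32.6 and 33.5 CPM, and Sv2c, a vesicle protein, which rose by 3.61 to between 10.4 and 12.3 CPM. On the lower side Fgf21, a stress hormone, fell by 4.13, Sync by 2.74, the macrophage elastase gene Mmp12 by 2.12 and Gxylt2 by 2.01. Fgf21 passed the filter on low counts through T cells labelled B16-F10 alone, so it had to differ. Rn7s1, a small RNA gene of many copies, and Pagr1a had log2 fold changes of -3.47 and -3.33, but their libraries scattered within a group, Pagr1a from 3.11 to 16.5 CPM in T cells labelled B16-F10. Neither passed in DESeq2.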

How the data were processed

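The authors deposited raw counts per gene for 12 libraries. Reads were aligned to GRCm39 with HISAT2 2.0.5 and counted with featureCounts 1.6.0, per the submitters' processing notes. The strand setting, the handling of reads with several matches and the annotation release are not given in the sources used here. All 77175 genes were kept, 21805 without a symbol, and 615 of 619 list symbols were found. CPM values divide each count by its library total. Fold changes came from edgeR 4.0.16 in R 4.3.3, fitted on the 6 T cell libraries after filterByExpr by group, with TMM scaling (factors of 1.02 and 0.981, so that fold changes lie slightly above ratios of CPM), quasi-likelihood F tests and Benjamini-Hochberg adjustment over all genes tested at 0.05. Changes beyond 2-fold came from glmTreat. Standard errors derive from the F statistic. The difference between OVA effects was fitted on all 12 libraries. The scripts were tested on simulated data.

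Libraries of a group gave a chi-square per degree of freedom of 1.512 to 1.704. Replicate numbers did not pair libraries (correlations of -0.111, -0.006 and 0.0507). The members and lists were chosen with earlier results of these data known. Named were the 10 highest and 10 lowest fold changes of all called genes (at least 5 CPM, no overlap, predicted genes and pseudogenes left out), the 12 highest and 12 lowest restricted genes (at least 1 CPM), up to 4 members of each list with the largest change, receptor segments and a fixed set of T cell genes. Other genes were named after their values were seen, and some that the rule names are not reported here. Promoters come from RefSeq, GRCm38.p6. Alternatives used DESeq2 1.42.0, limma-voom (limma 3.58.1), other scalings and filters, a replicate block and leaving out each library.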

Additional observations from a re-analysis of the deposited data

Results flagged for a closer look

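For some genes named above the OVA effect was beyond 2-fold in both fractions and opposite in sign, and edgeR's test of the difference passed. The values that follow are the OVA effect in T cell libraries minus that in tumor cell libraries on the log2 scale. Interferon gamma response genes, which rose in T cells and fell in tumor cells, gave 4.86 for Gbp2, 4.96 for Igtp, 3.38 for Irf1, 4.73 for Irgm1, 4.26 for Irgm2, 3.68 for Tgtp1 and 3.78 for Tgtp2. T cell genes that fell in T cells and were higher in tumor cells labelled OVA gave -7.58 for Ctsw and -6.49 for Itgae. A negative difference does not set these genes apart, because all 16 T cell identity genes had one that passed. Within the tumor cell fraction the identity genes summed to 128.2 CPM under the OVA label, against 0.9152 CPM under the other label. The share of this T cell RNA in the Ctsw and Itgae values was not tested. Other genes gave -7.85 for Fgf21, -7.58 for Mmp12, -7.65 for Sync, -2.96 for Rn18s-rs5 and -5.01 for Rn7s1. Fits with few counts in tumor cells labelled B16-F10 depend on the prior count. Genes with 3 or fewer counts in any group were left out of this list.

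OT-1 receptor segments were present in libraries that were sorted as melanoma cells. Tumor cells labelled OVA had a mean of 13.82 CPM of Trbv12-1 and 6.947 CPM of Trav14d-1, above the level in tumor cells labelled B16-F10.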

How the results depend on the processing

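Over 9 alternatives the counts of T cell restricted genes ran from 57 to 61 higher and from 34 to 36 lower, the interferon gamma list stayed at 27 higher and 0 lower, and no value turned its sign past the threshold. All higher genes ran from 3144 (DESeq2) to 4587 (scaled to T cell identity genes, which made 59.8% of calls higher against 51.3%), and lower genes from 2727 to 3741. Genes lower beyond 2-fold were 154, but 95 with DESeq2. The count of genes on the T cell side was 162 with the mean of both T cell groups as denominator and 106 with T cells labelled B16-F10 alone, an alternative chosen after seeing the data; the first put 14 of 27 interferon gamma genes on that side. With TMM-scaled CPM the T cell identity sum differed by -24.34 in place of -61.56 CPM and the endothelial and fibroblast sum by -189.7 in place of -992.1 CPM. Leaving out 1 library gave 3606 to 3746 higher and 3293 to 3440 lower genes, 273 to 289 and 148 to 169 beyond 2-fold, 57 to 60 and 35 to 36 restricted genes, 12584 to 12813 differences between effects, and sums of -64.2 to -59.14 and -1055 to -948.6 CPM. Klrg1 lost its call in 9 alternatives and Cd4 in 3.

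With the replicate number as a block, which does not pair these libraries, 3897 genes were higher and 3679 lower, 292 and 152 beyond 2-fold, 58 and 35 restricted genes were called, and 12661 effects differed. The difference between effects was not scaled to T cell identity genes, because these are near 0 in tumor cells labelled B16-F10. Depth limits rare transcripts such as Il2, Il3 and Tox.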
